A study of Rattus norvegicus with 9 samples.

Results

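The 9 genes described here encode parts of the machinery that releases neurotransmitter from synaptic vesicles: the calcium sensors Syt1 and Syt7, the fusion protein Snap25, the active zone and priming proteins Rims1, Rims2, Unc13a and Unc13b, the vesicle-tethering protein Syn2 and the endocytic adaptor Snap91. They were selected on measured values, because each is named in the authors' tables of transcripts that differed between VPA-treated and control cells. Of the 9, 8 carry an Ensembl identifier and could be followed in the count table of 32662 genes, and all 8 were among the 12719 genes that passed the filter on low counts. Syt7 has no identifier there, and its values are FPKM from the authors' Cufflinks table alone. Among the 9, Syt7 lay nearest to the 0.05 limit of those lists, with a q-value of 0.0405 in the authors' deposited table. Genes beyond that limit carry no name in the tables used here.

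The cells were RN46A, a conditionally immortalised line derived from embryonic rat raphe and labelled serotonergic. There were 3 VPA libraries (sodium valproate, an anticonvulsant and mood stabiliser that also inhibits histone deacetylases, 0.5 mM for 72 h), 3 lithium libraries (0.5 mM for 72 h) and 3 control libraries (no drug concentration, also labelled 72 h). All groups were grown at 33 °C in 5% serum and shifted to 39 °C in 1% serum for 72 h of differentiation on collagen and fibronectin before the exposure. The labels do not say whether replicates were separate cultures, so p-values measure the spread between these libraries, which may be technical. RN46A is a single immortalised line, and bulk RNA cannot separate a larger share of expressing cells from more RNA per cell. Library totals ran from 9580591 to 13030300 reads, so 1 read was worth 0.0767 to 0.104 CPM (read counts scaled to a common library size). The serotonergic character could not be checked in the counts. Of the 8 defining markers looked up (Tph1, Tph2, Slc6a4, Fev, Lmx1b, Gata2, Gata3 and Htr1a), 0 carry a name in the authors' DESeq2 or Salmon tables. The authors' Cufflinks table was not searched for them.

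In a nerve terminal, synapsins hold vesicles in a reserve pool, RIM proteins and Munc13 proteins (the products of Rims and Unc13 genes) dock and prime them at the active zone, and SNARE proteins including SNAP-25 pull the membranes together. Synaptotagmin-1 triggers fast fusion when calcium enters, synaptotagmin-7 acts at lower calcium with slower kinetics, and clathrin adaptors such as AP180 (the product of Snap91) retrieve the membrane afterwards. Endocrine and neuron-like cells use much of the same set to release dense-core vesicles.

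RefSeq promoter windows of build GRCr8, from 250 bases before to 50 bases after a gene's start, were found for 5 of the 9 genes. Those genes had 6 windows, because Unc13b has a pair of starts. The upstream 250 bases are shown for Syt1, Rims1 and Syn2, which stood furthest apart between VPA and control among the genes with a window, and for Unc13a, which holds both parts of the motif described next. Capitals mark GC boxes (GGGCGG or CCGCCC on the other strand) and, in Unc13a, the right part of the RE1 motif (GGACAG or CTGTCC).
Syt1 chr7:46244214-46244463 (minus strand): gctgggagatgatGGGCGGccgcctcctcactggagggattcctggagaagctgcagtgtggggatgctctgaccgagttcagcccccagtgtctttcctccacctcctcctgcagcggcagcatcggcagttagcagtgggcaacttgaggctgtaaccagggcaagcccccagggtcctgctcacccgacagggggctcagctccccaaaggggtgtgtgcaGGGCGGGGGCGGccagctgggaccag
Rims1 chr9:32692773-32693022 (minus strand): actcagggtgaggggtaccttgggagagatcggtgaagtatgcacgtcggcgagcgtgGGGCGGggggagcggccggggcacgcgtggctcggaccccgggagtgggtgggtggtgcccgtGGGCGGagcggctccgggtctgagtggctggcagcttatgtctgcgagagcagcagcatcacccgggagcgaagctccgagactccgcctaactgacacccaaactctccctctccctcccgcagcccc
Syn2 chr4:149858669-149858918 (plus strand): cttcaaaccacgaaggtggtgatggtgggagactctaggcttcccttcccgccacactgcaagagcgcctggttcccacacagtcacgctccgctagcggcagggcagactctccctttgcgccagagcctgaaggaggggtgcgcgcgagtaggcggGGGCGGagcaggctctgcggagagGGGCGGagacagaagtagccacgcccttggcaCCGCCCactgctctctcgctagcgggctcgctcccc
Unc13a chr16:18415787-18416036 (minus strand): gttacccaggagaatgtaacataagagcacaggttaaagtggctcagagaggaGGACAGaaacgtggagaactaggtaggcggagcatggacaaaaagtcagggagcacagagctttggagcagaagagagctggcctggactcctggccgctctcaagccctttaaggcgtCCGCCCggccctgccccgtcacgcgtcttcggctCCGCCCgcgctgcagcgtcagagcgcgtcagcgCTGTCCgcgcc
A GC box was present in 6 of 6 windows of the release genes, against 33.1% of the 33469 windows in the RefSeq table, searched on both strands. These windows were also richer in G and C, at 54 to 71%, against a median of 51.7% over all windows, and held 8 to 35 CpG pairs, against a median of 7. The GC box is made of G and C alone, so the motif count and this composition are not separate measures. RE1 is the element bound by the repressor REST, which silences many neuronal genes outside neurons. Its left part (TTCAGCACC) was found in the Unc13a window, against 0.356% of all windows, and its right part (GGACAG) in Unc13a and in the first Unc13b window, against 21.7% of all windows. In Unc13a both parts lie on the strand opposite to the gene, from base -11 to base 12 around the start, with 8 bases between them (capitals mark the right and left parts, read on the gene's strand).
Unc13a site chr16:18415775-18415797 (minus strand): CTGTCCgcgcccccGGTGCTGAA
Both parts in that order on 1 strand, at any spacing, occurred in 20 of the 33469 windows, or 0.0598%. A cAMP response element (TGACGTCA), an E-box (CACGTG) and a TATA box (TATAAA) were each found in 0 of the 6 windows, against 1.83%, 6.42% and 14.2% of all windows. A CCAAT box (CCAAT) was found in 1 of 6, the first Unc13b window, against 37.5%. A match in these letters describes the window and does not show a bound factor.

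In VPA-treated cells the summed level of the 8 counted genes was 106, 99.9 and 102 CPM. It was 26.5, 37.1 and 41.3 CPM in lithium-treated cells and 33.2, 26.7 and 36.0 CPM in control cells. The means were 103 ± 3.07 CPM with VPA, 35.0 ± 7.61 CPM with lithium and 32.0 ± 4.77 CPM in controls (SD, n = 3 each), so the VPA sum was 3.21 times and the lithium sum 1.09 times that of controls. In each of the 8 genes every VPA library lay above every control library. Because VPA against control is the contrast that chose the genes, their values and calls in it are a description, and no p-value is given for them. By edgeR's quasi-likelihood test 8 of 8 were called higher (adjusted p under 0.05), where 5.71% of all genes tested were called higher, and 14.1% of all genes had every VPA library above every control library. Nothing is read from these counts. With the replicate number as a block 1741 genes were called in all, against 1106 without it, and 8 of the 8 release genes were called either way.

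**Figure D1:**
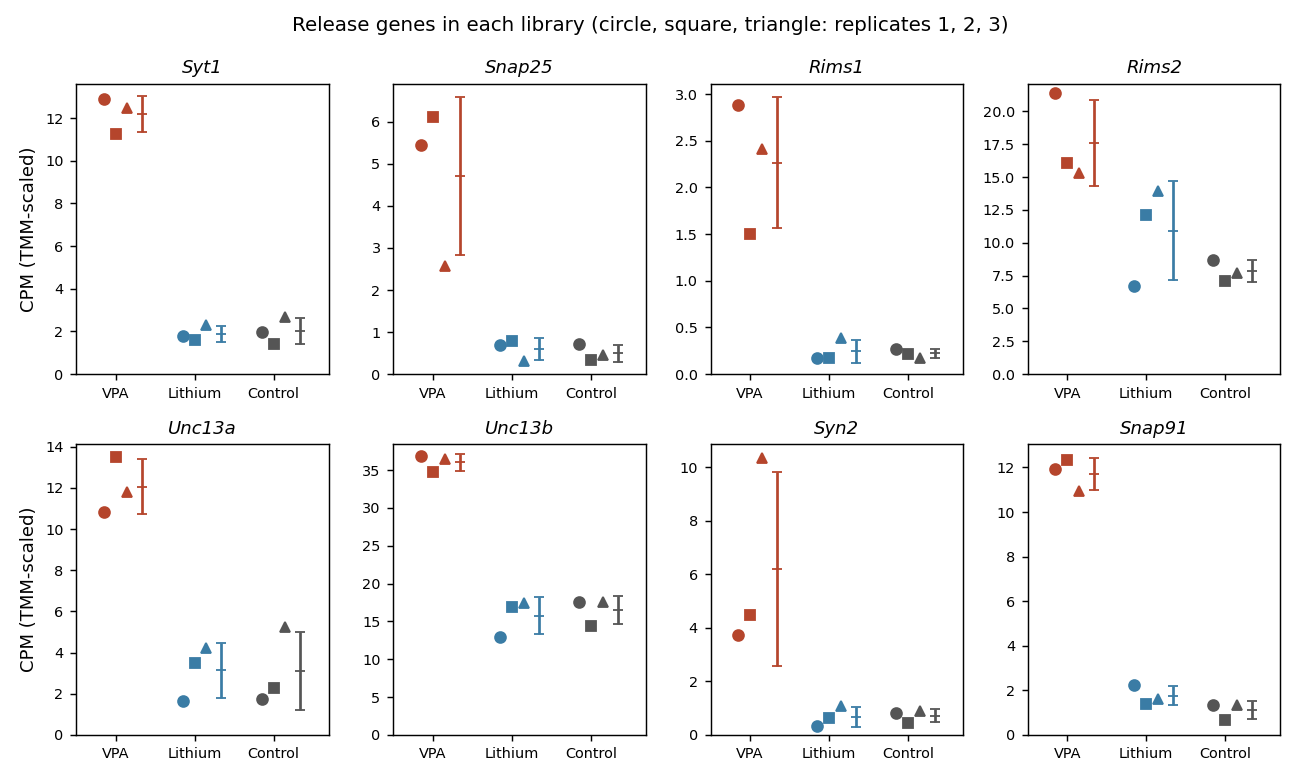
Level of each counted release gene in every library, in CPM scaled by TMM factors on linear axes from 0, with VPA, lithium and control side by side; circles, squares and triangles are replicates 1, 2 and 3, and bars are the mean ± SD of 3 libraries. In each panel the 3 VPA points lie above the 3 control points, and lithium points overlap control points in all panels but that of Snap91.

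Among the calcium sensors, Syt1 (ENSRNOG00000006426), the sensor of fast synchronous release, had 12.9, 11.2 and 12.4 CPM with VPA, 1.81, 1.58 and 2.31 CPM with lithium and 2.00, 1.41 and 2.67 CPM in controls. The VPA libraries varied by 6.92% (coefficient of variation), and the lithium and control ranges overlapped. The fitted log2 fold change of VPA over control was 2.57 ± 0.27 (SE), a 5.95-fold difference. Syt7, a high-affinity sensor of slow release, had 5.68 FPKM with VPA and 3.27 FPKM in controls in the authors' deposited Cufflinks table, 1 value per group without a spread. Its log2 ratio of 0.79 was the smallest of the 8 genes in that table.

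Snap25 (ENSRNOG00000006037), a plasma membrane SNARE protein and the only fusion protein of the set, had 5.46, 6.11 and 2.57 CPM with VPA, 0.689, 0.789 and 0.308 CPM with lithium and 0.726, 0.326 and 0.444 CPM in controls. VPA replicate 3 and lithium replicate 3 were each the lowest of their group. The log2 fold change of VPA over control was 3.19 ± 0.48 (SE). These levels rested on 159 reads over the VPA libraries, 21 over the lithium libraries and 16 over the control libraries. The ratio of VPA to control had a 95% interval of 5.40 to 16.2 from counting alone.

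Rims1 (ENSRNOG00000011000), an active zone scaffold that links vesicles to calcium channels, was the gene with the lowest counts: 2.89, 1.50 and 2.41 CPM with VPA, 0.172, 0.175 and 0.385 CPM with lithium and 0.272, 0.217 and 0.178 CPM in controls. That is 81 reads over the VPA libraries, 9 over the lithium libraries and 7 over the control libraries. Its log2 fold change of VPA over control was 3.30 ± 0.48 (SE), and the counting interval of the ratio ran from 4.88 to 27.0. Its paralogue Rims2 (ENSRNOG00000004201), with a like role, had 21.4, 16.1 and 15.3 CPM with VPA, 6.72, 12.1 and 13.9 CPM with lithium and 8.71, 7.06 and 7.73 CPM in controls. The lithium libraries were spread widely and reached towards the VPA range, and the log2 fold change of VPA over control was 1.17 ± 0.27 (SE). Rims2 fell short of a call in that contrast without control replicate 1, 2 or 3 or VPA replicate 1, at log2 fold changes of 1.25, 1.09, 1.17 and 1.00 in that order.

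Unc13a (ENSRNOG00000018452), which encodes the priming factor Munc13-1, had 10.8, 13.5 and 11.8 CPM with VPA, 1.64, 3.51 and 4.24 CPM with lithium and 1.72, 2.28 and 5.24 CPM in controls. Control replicate 3 stood above the other controls, and the log2 fold change of VPA over control was 1.95 ± 0.41 (SE), against 2.60 without that library. Without control replicate 1 the gene was not called. Unc13b (ENSRNOG00000008237), which encodes Munc13-2, had 36.9, 34.7 and 36.5 CPM with VPA, 12.9, 16.9 and 17.4 CPM with lithium and 17.6, 14.3 and 17.5 CPM in controls. Its VPA libraries varied by 3.23% (coefficient of variation), the least of the 8 genes, and the log2 fold change of VPA over control was 1.13 ± 0.18 (SE).

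Syn2 (ENSRNOG00000008157), which encodes synapsin II, had 3.74, 4.50 and 10.4 CPM with VPA, 0.345, 0.614 and 1.08 CPM with lithium and 0.817, 0.434 and 0.889 CPM in controls. VPA replicate 3 was far above the other VPA libraries, and the coefficient of variation with VPA was 58.4%, the most of the 8 genes. The log2 fold change of VPA over control was 3.08 ± 0.51 (SE) with that library and 2.49 without it. Snap91 (ENSRNOG00000023861), which encodes the clathrin assembly protein AP180, had 11.9, 12.3 and 10.9 CPM with VPA, 2.24, 1.40 and 1.62 CPM with lithium and 1.36, 0.651 and 1.33 CPM in controls. It had the highest log2 fold change of VPA over control of the 8, 3.36 ± 0.31 (SE), and its groups fell in the order VPA, lithium, control without overlap.

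The 8 genes covered fold changes between 2.18 (Unc13b) and 10.3 (Snap91), with a median log2 of 2.83, against -0.01 over all genes tested. Rims2 and Unc13b had the 2 lowest values, and these differed by less than either standard error, as did those of Snap25, Rims1, Syn2 and Snap91 at the upper end. Unc13b gave 35.1% of the summed CPM of the 8 genes with VPA and 51.5% in controls, Syt1 11.9% with VPA and 6.33% in controls, and Snap91 11.4% with VPA and 3.49% in controls.

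**Figure D2:**
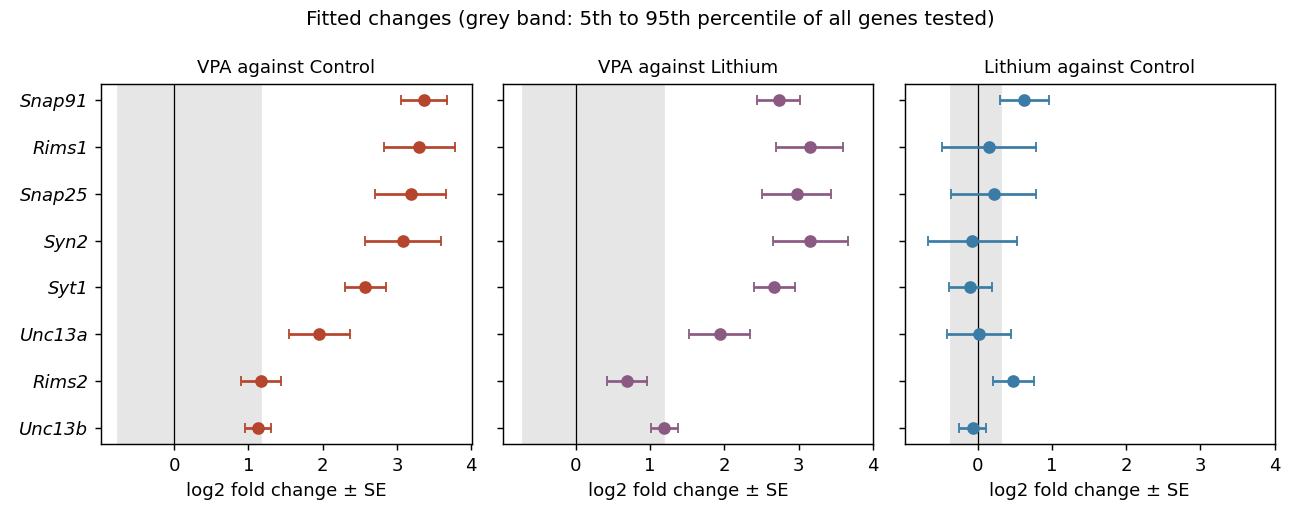
Fitted log2 fold change ± SE of each counted release gene in VPA against control, VPA against lithium and lithium against control, from 3 libraries a group; the grey band spans the 5th to 95th percentile of all genes tested. In VPA against control 6 of the 8 genes lie right of the band, and in lithium against control 2, Snap91 and Rims2, do.

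The authors' Cufflinks table scales reads by transcript length and so allows levels to be compared between genes. In VPA cells the authors' deposited values lay close together, with 5.68 FPKM for Syt7, 4.001 for Unc13b, 2.98 for Unc13a, 2.94 for Rims2, 2.75 for Syn2, 2.55 for Syt1, 2.54 for Snap91 and 2.39 for Snap25. In control cells the authors' deposited FPKM values were spread more widely: 3.27 for Syt7, 1.88 for Unc13b, 1.19 for Rims2 and 1.12 for Unc13a at the upper end, and 0.469 for Syt1, 0.318 for Syn2, 0.274 for Snap91 and 0.199 for Snap25 at the lower. The highest was 2.38 times the lowest in VPA cells and 16.4 times the lowest in control cells. The genes with the lowest control FPKM had the largest ratios, 11.99-fold for Snap25 and 9.26-fold for Snap91, and Syt7, with the highest control FPKM, had the smallest, 1.73-fold. A ratio holds the control value in its denominator, so this ordering is a description of these 8 genes. Rims1 is not listed in that table, and the table gives no spread between libraries.

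**Figure D3:**
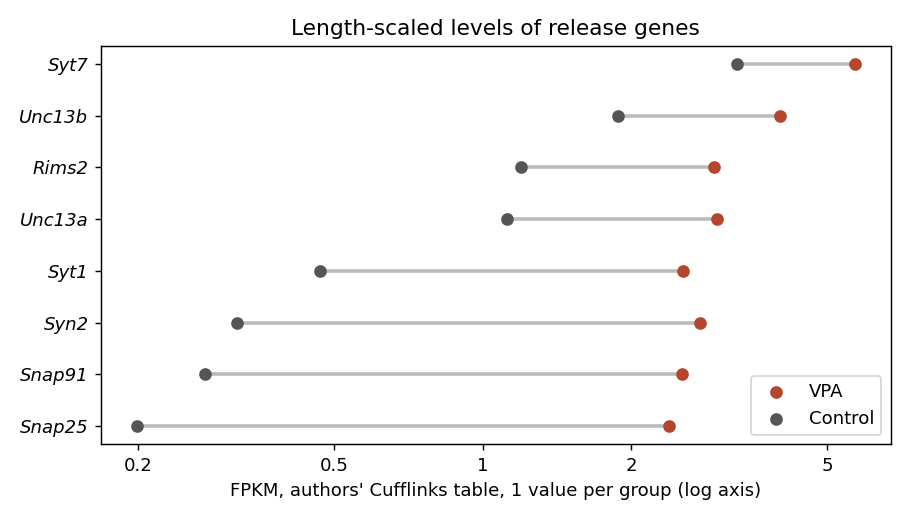
FPKM of the 8 release genes in the authors' Cufflinks table on a log axis, 1 value per group, joined by a line for each gene; VPA is in red and control in grey. VPA values run from 2.39 for Snap25 to 5.68 for Syt7, and control values of the same genes from 0.199 to 3.27.

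In the authors' deposited DESeq2 table the log2 fold changes of VPA over control ran from 1.0 for Rims2 and Unc13b to 2.6 for Snap91, with 2.1 for Syt1, 2.2 for Snap25, 2.0 for Syn2, 1.8 for Rims1 and 1.5 for Unc13a. The authors' deposited transcript table from Salmon and sleuth lists 1 transcript for each of 7 genes and none for Rims1 or Syt7. Converted to log2, the effects in the authors' deposited table were 3.30 for Snap91, 2.47 for Syt1, 2.10 for Syn2, 1.91 for Unc13a, 1.71 for Snap25, 1.11 for Unc13b and 0.94 for Rims2. All 3 deposited tables were made from the same libraries and are not separate evidence. By position in the authors' deposited Cufflinks table, whose genome build is not given in the sources used here, Syt1 spans 50084059 to 50639004 and Rims2 78091834 to 78677283 on chromosome 7, while Unc13b spans 58505246 to 58715578 on chromosome 5.

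Lithium against control asks whether the other mood stabiliser moved the same genes. It was not the contrast that chose them, although it shares the control libraries. Snap25, Rims1 and Syn2 passed the filter on low counts only through the VPA libraries: with lithium and control alone they fail it, and 5 of the 8 are tested, with 0 called. None of the 8 genes was called (edgeR's quasi-likelihood test, adjusted p = 1 for each), where 0.00% of all genes tested were called, 0 of 12719. At an unadjusted p under 0.05, 116 of all genes and 0 of the 8 passed by edgeR, and DESeq2 called 0 genes with 113 at that unadjusted limit. The groups did not overlap for 1 of the 8 genes, Snap91, where 3.28% of all genes had groups that did not overlap. Every lithium library of Snap91 lay above every control library, at a log2 fold change of 0.63 ± 0.33 (SE, unadjusted p = 0.0841, edgeR). For Rims2 the log2 fold change was 0.48 ± 0.27 (SE, unadjusted p = 0.105, edgeR).

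The other 6 genes lay closer to 0 in lithium against control, with log2 fold changes of 0.22 ± 0.57 for Snap25, 0.15 ± 0.63 for Rims1, 0.02 ± 0.43 for Unc13a, -0.07 ± 0.18 for Unc13b, -0.07 ± 0.60 for Syn2 and -0.10 ± 0.29 for Syt1 (SE, n = 3 a group). The median over the 8, the 3 with few reads included, was 0.09, against 0.00 over all genes tested. The 95% interval of the lithium fold change was narrowest for Unc13b, from 0.727 to 1.26, and widest for Rims1, from 0.429 to 2.89. It ran from 0.598 to 1.46 for Syt1, from 0.384 to 2.36 for Syn2 and from 0.934 to 2.55 for Snap91. For each of the 8 genes the fitted fold change of VPA over control lay above the upper end of this lithium interval. The genes were chosen for a difference in VPA against control, so this largely follows from that choice and is a description. Rims2 was closest, at 2.24 with VPA against an upper end of 2.11 with lithium. Its VPA interval, from 1.49 to 3.39, overlapped its lithium interval, from 0.922 to 2.11. A p that misses the limit does not show that lithium and control cells were alike.

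VPA against lithium compares the drugs at 1 dose and 1 time, and shares its VPA libraries with the contrast that chose the genes, so its values are a description. Every VPA library lay above every lithium library in 8 of 8 genes (15.8% of all genes tested), and 7 of 8 were called higher by edgeR's quasi-likelihood test (5.61% of all genes). The log2 fold changes of VPA over lithium were 3.16 ± 0.50 for Syn2, 3.15 ± 0.46 for Rims1, 2.97 ± 0.46 for Snap25, 2.73 ± 0.29 for Snap91, 2.67 ± 0.27 for Syt1, 1.93 ± 0.41 for Unc13a, 1.19 ± 0.18 for Unc13b and 0.69 ± 0.27 for Rims2 (SE). Rims2 was the gene not called. Side by side over control, Rims2 had 1.17 with VPA and 0.48 with lithium on the log2 scale, and Snap91 had 3.36 with VPA and 0.63 with lithium; both drugs share the control libraries in these values.

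Within the VPA and lithium groups the genes did not move as 1 block. VPA replicate 3 held the highest Syn2 and the lowest Snap25 of the VPA libraries, and lithium replicate 1 held the lowest Rims2, Unc13a, Unc13b and Syn2 but the highest Snap91 of the lithium libraries. Among controls the genes moved together more, and control replicate 1 lay above its group mean in 7 of 8 genes. Control replicate 2 lay below its group mean in 8 of 8 genes, with a median deviation of -0.25 on the log2(CPM + 0.5) scale. It also had the fewest reads of any library, 9580591. Lithium replicate 3 lay above its group mean in 6 of 8 genes and had the most reads, 13030300. Lithium replicate 1, with 11743876 reads, had a median deviation of -0.20, and lithium replicate 2, with 11207844 reads, one of 0.04. VPA replicate 2, with 9658054 reads, had -0.08. Whether depth had a part in these deviations was not tested. No share over all genes was computed for these counts.

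**Figure D4:**
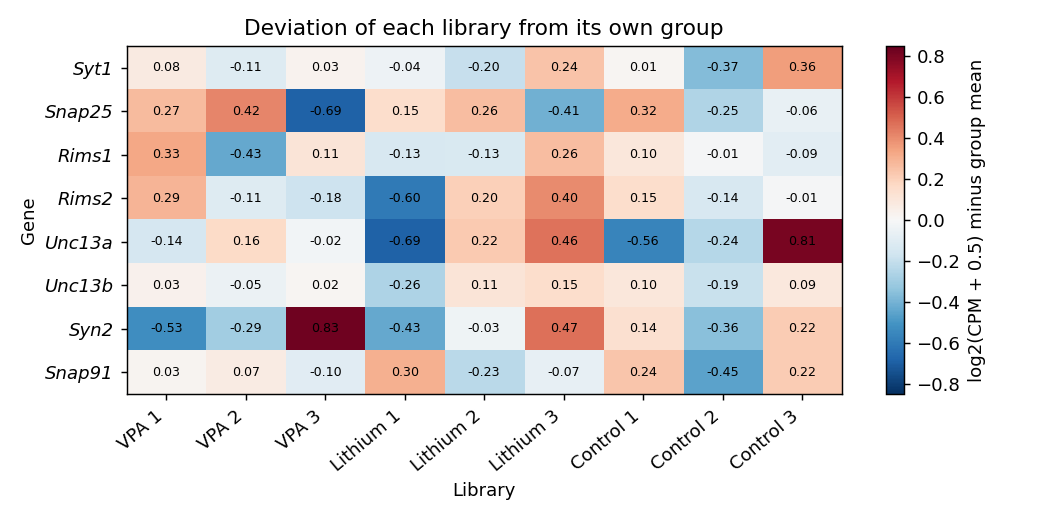
Deviation of each library from its own group's mean for the 8 counted release genes, on the log2(CPM + 0.5) scale, with libraries in columns and genes in rows; red is above and blue below the group mean. The column of control replicate 2 is blue throughout, while VPA replicate 3 shows the highest Syn2 and the lowest Snap25 deviation of its group.

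The wider release pathway was taken from 6 lists of 155 other genes (calcium sensors, SNARE and fusion, active zone and priming, vesicle proteins, endocytosis, dense-core vesicles). Only 18 of them carry a name in the authors' DESeq2 or Salmon tables and were tested. The authors' Cufflinks table was not searched for the others. As a gene has a name in the DESeq2 or Salmon table because the authors listed it for VPA, the VPA counts describe those 18 and no wider set. In VPA against control 12 rose, 2 fell and 4 did not pass (edgeR), where 5.71% of all genes tested were called higher and 2.99% lower. Erc2 and Sncb, both among the 12, passed the filter on low counts only through the VPA libraries. They had at most 0.616 and 0.539 CPM in any lithium or control library. With the replicate block over all 9 libraries 14 rose and 2 fell, Syn1 and Syt17 being the genes added. That fit took in the lithium libraries, which the replicate numbers did not pair with controls. Over all 12719 genes the block gave 1075 called higher and 666 lower, against 726 and 380 without it. With VPA and control alone 11 rose and 1 fell without the block, as Fcho1 and Unc13d did not pass. With the block 15 rose and 2 fell there. Of the 12504 genes tested there, 609 were called higher and 253 lower without the block, and 1412 and 996 with it. Nothing is read from the added calls. The 18 genes had a median log2 fold change of 1.39, against -0.01 over all genes. In lithium against control 0 of the 18 were called, with a median of 0.07, Erc2 and Sncb included. With so few lithium and control reads, the lack of a call for Erc2 and Sncb says little. None of the 26 SNARE and fusion genes listed is named in the DESeq2 or Salmon table, so Snap25 has no named partner here.

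Among the 4 calcium sensors and synaptotagmin-like genes, 2 rose, 1 fell and 1 did not pass in VPA against control. Syt3, a synaptotagmin, had 3.46 ± 0.73 CPM with VPA and 1.11 ± 0.21 CPM in controls, and Sytl4, a Rab27 effector on dense-core granules, had 12.1 ± 3.12 CPM with VPA and 5.33 ± 0.58 CPM in controls (SD, n = 3 each). Sytl1, another Rab27 effector, fell to 5.15 ± 0.84 CPM with VPA, against 16.5 ± 5.51 CPM in controls. Syt17 did not pass, at a log2 fold change of 0.96 ± 0.30 (SE).

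Of 5 active zone and priming genes, 2 rose, 1 fell and 2 did not pass. Bsn, which encodes the scaffold Bassoon, had 4.34 ± 0.35 CPM with VPA and 1.67 ± 0.58 CPM in controls. Erc2, another active zone scaffold, had 1.09, 0.964 and 1.85 CPM with VPA and 0.181, 0 and 0 CPM in controls, too few control reads for a fold change to be given. Unc13d, the Munc13-4 paralogue of Unc13a and Unc13b, fell to 4.33 ± 0.80 CPM with VPA, against 8.42 ± 1.59 CPM in controls, a log2 fold change of -0.96 ± 0.27 (SE). Cask and Rab3a did not pass, at 0.65 ± 0.24 and 0.48 ± 0.22 on the log2 scale (SE).

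Of 5 vesicle proteins, 4 rose and 1 did not pass. Slc17a7, the vesicular glutamate transporter VGLUT1, had 11.4 ± 2.72 CPM with VPA and 1.54 ± 1.00 CPM in controls, and Sncb, beta-synuclein, had 2.56 ± 0.81 CPM with VPA and 0.294 ± 0.13 CPM in controls (SD). Scamp5, a secretory carrier membrane protein, rose by 1.53 ± 0.24 on the log2 scale. Syn1, the synapsin paralogue of Syn2, had 15.8, 16.4 and 32.5 CPM with VPA and 5.72, 3.47 and 13.3 CPM in controls and did not pass, at a log2 fold change of 1.51 ± 0.52 (SE). Replicate 3 held its highest value in both groups, and with the replicate block Syn1 was called, at 1.61 ± 0.24 (SE). Svop, a vesicle transporter-like protein, had 3.67, 3.21 and 2.57 CPM with VPA, 2.67, 3.42 and 2.62 CPM with lithium and 1.45, 0.868 and 1.16 CPM in controls. It lay above every control library in both drug groups, and its lithium log2 fold change was 1.31 ± 0.32 (SE, unadjusted p = 0.00146, adjusted p = 1, edgeR).

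Both endocytic genes rose in VPA against control: Sh3gl3, endophilin A3, by 1.59 ± 0.20 and Fcho1, an early clathrin-coat factor, by 0.81 ± 0.22 on the log2 scale (SE). Both dense-core vesicle genes also rose. Vgf, a neuropeptide precursor, had 38.7, 48.7 and 75.3 CPM with VPA and 1.81, 1.52 and 5.24 CPM in controls, and Pam, the peptide-amidating enzyme, had 121, 109 and 172 CPM with VPA and 68.3, 52.9 and 78.5 CPM in controls. VPA replicate 3 held the highest value of both.

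**Figure D5:**
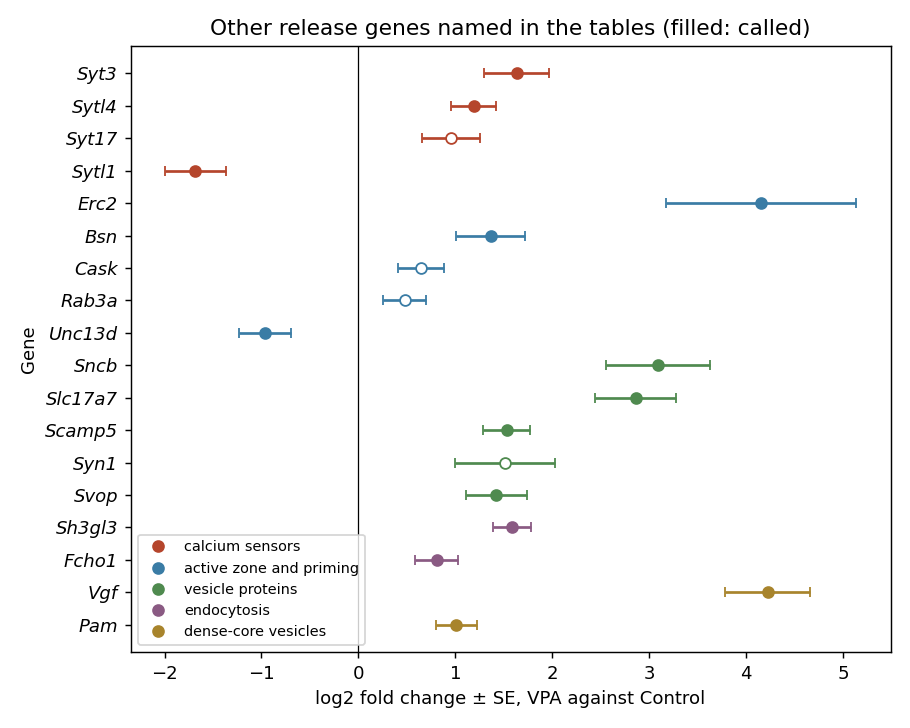
Log2 fold change ± SE of VPA over control for the 18 other release genes named in the authors' DESeq2 or Salmon tables, coloured by list. Filled points were called (edgeR, adjusted p under 0.05) and open points were not. Sytl1 and Unc13d lie left of 0 and the other points lie right of it; the value of Erc2 rests on very few control reads.

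Markers of cell types moved in the same libraries. Only markers named in the authors' DESeq2 or Salmon tables were tested, so a high share of calls follows from that choice. Nothing is read from it. Of all genes tested 5.71% were called higher and 2.99% lower with VPA. With the replicate block 1075 of 12719 were called higher and 666 lower. Of 7 neuronal markers tested out of 19 listed, 6 rose in VPA against control and 7 with the replicate block. The 8 named neuronal markers had a summed level of 319 to 454 CPM with VPA, 133 to 171 CPM with lithium and 139 to 196 CPM in controls, and Uchl1 the most abundant. Of 4 neural crest and glial markers tested out of 14, 3 rose and S100b fell, with sums of 55.9 to 65.1 CPM with VPA, 14.4 to 15.9 CPM with lithium and 11.1 to 16.9 CPM in controls, and Ngfr the most abundant with VPA. Of 7 fibroblast markers tested out of 12, 6 fell, and 7 with the replicate block, with sums of 4004 to 5542 CPM with VPA, 8111 to 10034 CPM with lithium and 11090 to 13428 CPM in controls. Fn1 and Vim made up most of that sum, and Lum was at 0 in all 3 VPA libraries. Of 3 leucocyte markers tested out of 9, 2 rose and 1 fell, and the 1 serotonergic marker named, Maob, rose, at 5.46 to 8.43 CPM with VPA, 0.693 to 1.21 CPM with lithium and 0.868 to 1.45 CPM in controls. Among the markers that rose, Sox10 and Lcp1 had at most 0.462 and 0.385 CPM in any lithium or control library. Both passed the filter on low counts only through the VPA libraries. The part of these marker shifts in the values of the release genes was not tested.

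Across the 9 libraries each counted release gene followed the mean of the other 7, with Pearson's r from 0.842 for Rims2 to 0.987 for Unc13b. The libraries fall into 3 groups, and the VPA libraries stand apart in every one of these genes by the choice of genes, so r is a description. Among 1120 named genes averaging at least 1 CPM, whose median r with the release genes' mean was 0.82, the 10 closest were Acsl1, Celsr3, Atp1b2, Plcg2, Chrna5, Igf2, Rnf128, Kif1a, Ccdc180 and Lrp8, at r of 0.983 to 0.993. Acsl1, an acyl-CoA synthetase, led at 74.8 CPM with VPA, 34.7 CPM with lithium and 32.2 CPM in controls (means, n = 3 each). Kif1a, the kinesin that carries synaptic vesicle precursors along axons, had 6.82 CPM with VPA, 1.05 CPM with lithium and 0.935 CPM in controls. A total of 368 of these named genes had an r of 0.9 or more, so this likeness is shared by many of them. They carry a name because the authors listed them for VPA. A high r therefore largely follows from that choice, and the median of 0.82 does not describe all genes tested.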

How the data were processed

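Per the labels' protocols, RNA of RIN over 7 was polyA-enriched and sequenced without strand information. Reads of antisense transcripts therefore cannot be told from those of their sense partner where they overlap. The authors deposited raw read counts per Ensembl gene, used as deposited. The submitters' processing notes name, with no roles given, Salmon 0.6.1 and kallisto 0.42.4, STAR 2.5.1 and CASAVA 1.8, and also sleuth, DESeq2 and Cufflinks 2.2.1; the genome build is not given in the sources used here. The authors' deposited DESeq2 table gives mean normalized counts (a signal), log2 fold changes and p-values, per the file headers. The authors' Cufflinks table gives FPKM per group, log2 ratios and q-values, per the file headers. The transcript effects the authors deposited from Salmon and sleuth were taken to be on the natural log scale and converted to log2. This was because they were a median 0.697 times the Cufflinks log2 ratio of the same gene. The 564 genes compared had 1 transcript and 1 locus listed each.

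After removal of low genes by filterByExpr (minimum count 10) and TMM scaling, edgeR 4.0.16 (R 4.3.3) fitted 1 mean per group to all 9 libraries by quasi-likelihood, leaving 6 residual degrees of freedom. Tests were two-sided, with Benjamini-Hochberg adjustment over 12719 genes and calls at 0.05. Standard errors were derived from log2 fold change and F, and 95% intervals use the moderated degrees of freedom. Intervals from read counts cover counting error only. The scripts were tested on simulated data. Libraries of 1 group differed by more than sampling noise, so none was counted as a repeat.

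Groups came from the treatment labels. Same-numbered VPA and control libraries deviated together from their group means (r = 0.605, 0.532 and 0.526 over 10288 genes), so the replicate number was also fitted as a block. Over all 9 libraries this block also took in the lithium libraries, whose numbers did not pair them with controls (r = -0.420, -0.0808 and 0.804). With VPA and control alone it did not. Other alternatives were scaling, filters, DESeq2 1.42.0, 2 groups alone and leaving out each library. The release genes, lists and motifs were chosen with earlier results of these data known. Named genes were the 9 release genes, up to 4 genes a list by smallest p in VPA against control, the most abundant or absent gene of a marker list, and the 10 genes most like the release genes. Rab3a and Syn1 were added after their values were seen, to complete a small count, and so were the fibroblast marker Vim and the glial marker S100b. The markers Sox10 and Lcp1 were named afterwards for their low levels outside the VPA libraries. Names of counted genes came only from the authors' DESeq2 and Salmon tables of VPA against control, for 1302 identifiers. Promoter windows came from RefSeq, build GRCr8.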

Additional observations from a re-analysis of the deposited data

How the results depend on the processing

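Without any single library, genes called in VPA against control ranged from 638 to 1026, against 1106 with all; the low counts came without VPA replicate 1 (638), 3 (669) or 2 (698) or control replicate 1 (694). The count was 1741 with the replicate block and 2408 with 2 groups alone and the replicate block. In VPA against lithium the calls were 1009, and 544 to 1197 without single libraries. The replicate block gave 1609 there, although the numbers did not pair these libraries (r = -0.193, 0.0555 and 0.537). Lithium against control gave 0 calls in every setting, with 59 to 247 genes at an unadjusted p under 0.05. There the replicate numbers did not pair the libraries (r = -0.420, -0.0808 and 0.804): lithium replicate 1 followed control replicate 2 most (r = 0.684) and lithium replicate 2 control replicate 1 (r = 0.650). The 0 calls with the replicate block therefore say nothing about stability, and no other pairing was fitted. Of the 8 release genes, 6 to 8 were called in VPA against control and 7 in VPA against lithium in every setting. Over all genes, those called higher ran from 457 of 12918 to 1412 of 12504 in VPA against control. In VPA against lithium they ran from 396 of 12907 to 1042 of 12719. The release genes were chosen on VPA against control, so their calls are a description and nothing is read from them. The Unc13a log2 fold change of VPA over control was 2.60 without control replicate 3, against 1.95. Without VPA replicate 3 the Syn2 log2 fold change was 2.49 over control and 2.56 over lithium. Small lithium log2 fold changes turned sign when single libraries were left out: Syt1 ranged from -0.31 to 0.15, Snap25 from -0.037 to 0.58, Rims1 from -0.34 to 0.33, Unc13a from -0.28 to 0.65, Unc13b from -0.17 to 0.041 and Syn2 from -0.59 to 0.22. Snap25, Rims1 and Syn2 gave no value with lithium and control alone, as they failed the filter there. Depth limits the genes with few reads, above all Rims1 with 7 control reads.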
